A study of Mus musculus with 8 samples.

Results

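Slc12a2, Guca2b and Clca4b are genes of ion and fluid secretion by the intestinal epithelium, and each had at least 1 differential peak of N6-methyladenosine (m6A) in the mouse colon. They were chosen by name from the authors' deposited table of m6A peaks that passed a test for a difference between control and Mettl14-deleted colonic epithelium. They hold 6 of its 195 peaks and 3 of its 168 genes. The 4 Clca4b peaks carried large positive differences and, with their skipped stretches counted, took up 75.2% of the gene span. Their exon blocks alone made up 11.8% of it. The single Guca2b peak was positive and spread over nearly the whole gene, and the single Slc12a2 peak was negative and lay at the 5′ end of the gene.

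The RNA was taken from the colonic epithelium of untreated C57BL/6 mice in postnatal week 6. Control mice carried Mettl14 f/f, floxed alleles of a core subunit of the m6A methyltransferase, and knockout mice carried Mettl14 f/f with CDX-cre. The Cdx genes encode homeobox factors of the intestinal epithelium; the labels do not say which of them drives the Cre. Each genotype had 3 m6A immunoprecipitates, made with an anti-m6A antibody, and 1 input of total RNA. The labels do not say whether the replicates came from separate animals.

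The table gives 1 value per peak over all libraries; values per sample, read depth and replicate error were therefore unknown for every peak below. Enrichment is the authors' linear ratio of immunoprecipitate over input. The difference is the authors' log2 fold change with its false discovery rate (FDR). The file does not state which genotype is the numerator. The deletion is the manipulation named in the design, so positive likely means more signal in the knockout, but every sign is given as deposited. In bulk RNA with 1 input per genotype, a change in m6A, a change in the amount of the transcript and a change in the number of cells that make it cannot be told apart. The sex of the mice was not among the details used here. Xist, an RNA made in female cells, had 3 listed peaks with log2 fold changes from -2.83 to -2.43. The peak of its antisense gene Tsix was at -2.85. Whether the genotypes differed in sex was not tested. Mettl14 itself had 0 listed peaks, so the table holds no check of the deletion. Of the marker genes looked up, 0 of 9 for colonic epithelium, 0 of 5 for immune cells and 1 of 5 for stroma had a listed peak. Of all RefSeq protein-coding genes, 0.74% had a listed peak, so counts in panels this short say nothing particular about these cell types. The stromal gene was the collagen gene Col1a1, with a log2 fold change of 1.61 (FDR 0.035) in the authors' deposited table. Its part in the values below was not tested. The stromal panel was short and left out other collagen genes with listed peaks, which had both signs. Col6a1 was at 1.27, and the 3 peaks of Col8a1 ran from -2.92 to -1.46. The immune panel was short and left out other immune genes with a listed peak, such as the complement genes C1qa, C1qb and C1qc. Their log2 fold changes were 1.92, 2.36 and 2.47, and their part in the values below was not tested either. The table gives no expression level, so it cannot check the labelled cell type.

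Fluid secretion in the intestine is driven by chloride. NKCC1, the product of Slc12a2, brings sodium, potassium and chloride into the cell through the basolateral membrane; chloride leaves through apical channels such as CFTR, and sodium and water follow. Uroguanylin, the product of Guca2b, is a peptide released into the lumen that activates the receptor guanylate cyclase C; the cyclic GMP this makes promotes chloride and bicarbonate secretion and slows sodium uptake. The CLCA proteins were first described as calcium-activated chloride channels and are now seen as secreted or shed proteins that modulate such channels. m6A is a methyl mark on adenosines of mRNA, placed by a complex of Mettl3 and Mettl14 within a short consensus around the sequence GAC or AAC, often late in the transcript.

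The 5′ edges of the Guca2b peak and of the first Clca4b peak lay exactly at the annotated start of the gene, so short stretches of sequence inside these peaks could be read from the RefSeq promoter table (GRCm38.p6). Slc12a2 had no usable window in that source, which holds the first 50 transcribed bases of each gene it covers. Of these, 30 that include the 5-letter match to the m6A consensus are shown for each gene, with the match in capitals. The Guca2b stretch holds bases 21 to 50 of the annotated transcript (chr4:119658896-119658925, minus strand), and the Clca4b stretch bases 1 to 30 (chr3:144932500-144932529, minus strand).
Guca2b: gaggcaggtggcaggcaggtGGACAgcaga
Clca4b: aaagagaggcctctgggTGACCaggctgga

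The consensus was searched as 18 words of 5 letters on the transcribed strand, which are A, G or T, then A or G, then AC, then A, C or T. In the first 50 transcribed bases, Guca2b held GGACA from base 41 as its single match, and Clca4b held TGACC from base 18. Of all 32841 such windows in the promoter table, 54.4% held at least 1 of these words, so a match is common. The core GGAC was present in the Guca2b stretch and in 18.9% of all windows. A match is a description of the letters and does not show that the adenosine was methylated.

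The 250 bases before each annotated start are given because both genes carried positive peaks that reach that start. Capitals mark the TATA box (TATAAA or TATATA) and the HNF1 half-site GTTAAT on either strand. The Guca2b stretch is chr4:119658946-119659195 and the Clca4b stretch chr3:144932530-144932779, both on the minus strand and written 5′ to 3′.
Guca2b: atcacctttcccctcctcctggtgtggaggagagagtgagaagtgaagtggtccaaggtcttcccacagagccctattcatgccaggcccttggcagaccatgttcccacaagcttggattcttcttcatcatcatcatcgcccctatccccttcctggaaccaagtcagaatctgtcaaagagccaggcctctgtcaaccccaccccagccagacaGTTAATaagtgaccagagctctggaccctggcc
Clca4b: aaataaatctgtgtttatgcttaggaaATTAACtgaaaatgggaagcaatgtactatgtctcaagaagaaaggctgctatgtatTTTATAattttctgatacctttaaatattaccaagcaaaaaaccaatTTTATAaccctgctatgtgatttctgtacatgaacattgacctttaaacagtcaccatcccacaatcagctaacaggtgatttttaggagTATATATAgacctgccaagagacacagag

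HNF1 factors are homeodomain activators of epithelial genes. The half-site GTTAAT began 33 nt before the annotated start of Guca2b and, on the opposite strand, its match began 223 nt before that of Clca4b. It was present in 6.43% of all 250-base stretches. Overlapping TATATA words began 29 and 27 nt before the Clca4b start, and TATAAA matched the opposite strand 166 and 119 nt before it; 15.6% of all stretches held either word. Neither word was found before the Guca2b start, but the first 6 annotated bases of that transcript read TATAAG. The CDX site TTTAT was found at 4 places before Clca4b and at none before Guca2b, against 37.3% of all stretches holding it on either strand. Of the places before Clca4b, those at 166 and 119 nt overlap the TATAAA matches on the opposite strand, and those at 248 and 237 nt do not.

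Of the 6 peaks, 5 had a positive log2 fold change, where 61.5% of all listed peaks were positive, and 1 had a negative one, where 38.5% were negative. All 6 had an FDR of at most 0.01, as did 53.3% of listed peaks, and a log2 fold change of at least 1 in size, as did 71.3%. The 4 Clca4b peaks were also past 2 in size, reached by 25.1% of listed peaks. These counts follow from the contrast used to choose the peaks and describe them only. The least certain of the 6, with an FDR of 0.0017, was well inside the limit of the table, whose weakest listed peak had an FDR of 0.05.

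Slc12a2 had 1 listed peak, at chromosome 18, 57878678 to 57879426 on the plus strand, as 1 exon block of 749 nt. In the authors' deposited table it was enriched 2.8-fold over input, with a log10 p-value for enrichment of -20.5. Its log2 fold change was -1.08, a 2.11-fold difference, with an FDR of 4.3e-06. The median negative peak of the list was further from 0, at -1.46, and more enriched, at 4.01-fold. The Slc12a2 peak was thus smaller than the median in both values, and by FDR it ranked 27 of 195.

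The Slc12a2 peak began 166 nt after the 5′ end of the gene, which spans 68310 nt (57878512 to 57946821), and covered 1.1% of that span. Its midpoint lay at 0.791% of the gene span, whereas the median midpoint of the 75 negative peaks was at 91.7%. Of the negative peaks, 4 had a midpoint in the first 10% of their gene, and 2, including that of Slc12a2, lay at or before 0.791%. Of the 120 positive peaks, 4 also had a midpoint in the first 10%. In having a single block it was like most negative peaks, of which 63 did. A midpoint in the first 10% of the gene was thus found for few listed peaks of either sign. The lengths of their genes were not compared. The gene span includes introns, so these positions are not positions along the mature mRNA.

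Guca2b had 1 listed peak, at chromosome 4, 119656633 to 119658945 on the minus strand. The authors' deposited table gave it a 6.81-fold enrichment with a log10 p-value of -39.6. Its log2 fold change was 1.44, a 2.71-fold difference, with an FDR of 9.1e-09. Against the positive peaks of the list, whose medians were 1.36 for the log2 fold change and 4.88-fold for enrichment, it was larger in both, and by FDR it ranked 15 of 195.

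The Guca2b peak consisted of 3 exon blocks of 165, 187 and 218 nt from the 5′ to the 3′ end, 570 nt in all, with skipped stretches of 1065 and 678 nt between them. It started at the annotated 5′ end of the gene (119656601 to 119658945, 2345 nt) and stopped 32 nt short of the 3′ end, so that it spanned 98.6% of the gene. The deposited value therefore stands for the 3 blocks together and locates no site within them. How much of the mature mRNA the blocks cover was not determined. Listed peaks that spanned over 95% of their gene numbered 10, and all 10 were positive. Peaks whose edge fell exactly on the annotated 5′ end numbered 26, of which 25 were positive and 1 was negative. Of all listed peaks, 61.5% were positive. The median genomic span was 2556 nt for positive peaks and 481 nt for negative ones. Gene lengths were not compared, and a link between such cover and the sign was not tested.

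**Figure D1:**
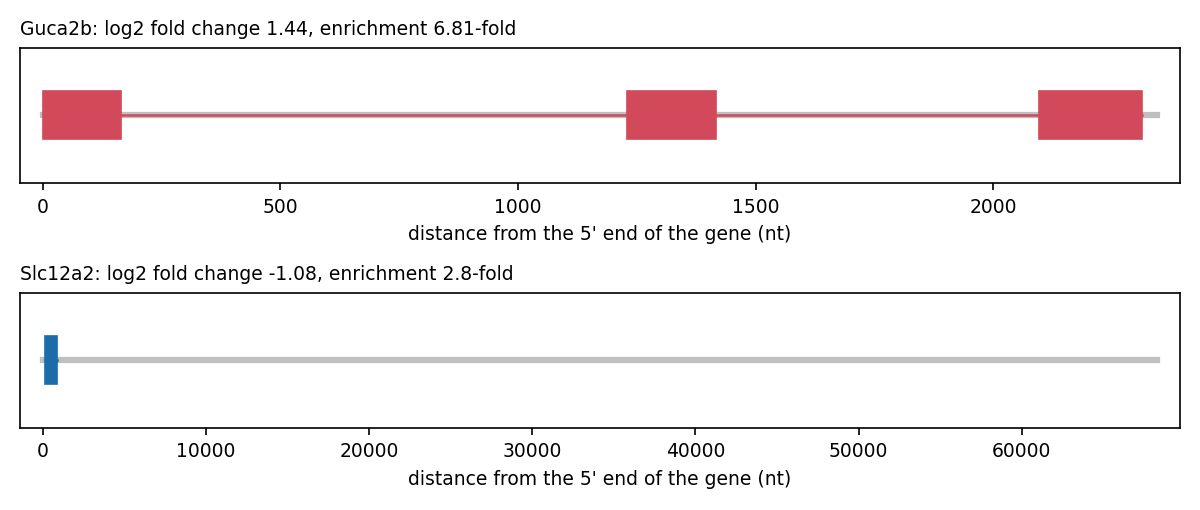
Listed peaks of Guca2b and Slc12a2 along each gene, with the distance from the 5′ end of the gene in nt on the horizontal axis. The grey line is the RefSeq gene span, filled boxes are exon blocks and the thin line joins blocks of the same peak; the 3 Guca2b blocks reach from end to end, while the single Slc12a2 block starts 166 nt into a gene of 68310 nt.

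Clca4b had 4 listed peaks, the most of any gene in the table, all on the minus strand of chromosome 3. They are numbered here from the 5′ end of the gene (144910921 to 144932529, 21609 nt). Peak 1 lay at 144925228 to 144932529, had a log2 fold change of 3.44 with an FDR of 6.9e-09 and was enriched 6.98-fold. Peak 2, at 144921860 to 144925138, had a log2 fold change of 3.21 with an FDR of 1.7e-03 and was enriched 17.4-fold. Both lie in the 5′ part of the gene, with midpoints at 16.9% and 41.8% of the gene span.

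Peak 3 of Clca4b, at 144913399 to 144916714, had a log2 fold change of 3.26 with an FDR of 2.4e-09 and an enrichment of 4.67-fold. Peak 4, at 144910951 to 144913309, had the largest log2 fold change of the 4, 3.54, with an FDR of 1.3e-15 and an enrichment of 17.4-fold. Their midpoints were at 80.9% and 94.4% of the gene span. All values are from the authors' deposited table, in which peak 4 ranked 5 of 195 by FDR of the difference. On a linear scale the 4 differences were 10.9-fold, 9.25-fold, 9.58-fold and 11.6-fold in order from the 5′ end.

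The 4 Clca4b peaks differed less in their genotype difference than in their enrichment. Their log2 fold changes had a median of 3.35 (10.2-fold) and spanned 0.33, while the highest enrichment was 3.73 times the lowest, a span of 1.9 on the log2 scale. Enrichment did not run in order along the gene, as peaks 2 and 4 were each at 17.4-fold and peaks 1 and 3 at 6.98-fold and 4.67-fold. The outer peaks, 1 and 4, were both the widest in exon blocks, at 900 and 870 nt, and the largest in log2 fold change; peaks 2 and 3 had 390 nt each. Peaks 2 and 4 had the same enrichment and log2 fold changes that lay 0.33 apart, yet FDRs of 1.7e-03 and 1.3e-15. How the number of reads differed between them was not tested, since the table gives none. Peaks of the same gene come from the same RNA molecules and are not replicates.

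**Figure D2:**
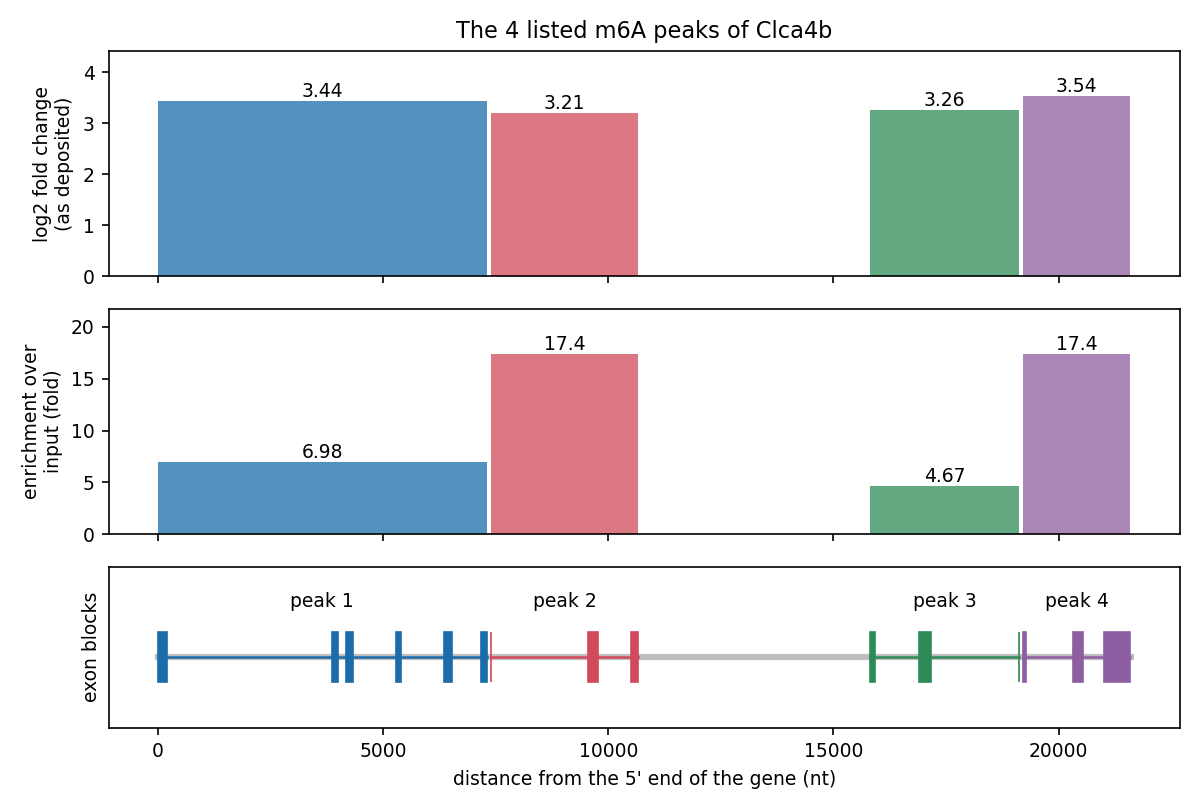
The 4 listed Clca4b peaks against distance from the 5′ end of the gene in nt. Bars give the authors' log2 fold change (top) and enrichment over input in fold (middle), each as wide as the peak, and the bottom panel shows the exon blocks on the grey gene span; the log2 fold changes lie between 3.21 and 3.54, while enrichment ranges from 4.67-fold to 17.4-fold.

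The Clca4b peaks tiled the gene as adjoining pairs. Peaks 1 and 2 were separated by 89 nt, peaks 3 and 4 also by 89 nt, and peaks 2 and 3 by 5145 nt. Peak 1 began at the annotated 5′ end and peak 4 stopped 30 nt before the 3′ end. From start to end the peaks took up 16256 nt, or 75.2% of the gene span, and none of them overlapped another listed peak. The largest uncovered stretch was the gap between the pairs.

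Together the 4 peaks held 15 exon blocks with 2550 nt, 11.8% of the gene span. Peak 1 had 6 blocks, of 195, 141, 148, 109, 178 and 129 nt from the 5′ end, and its first skipped stretch, of 3669 nt, was the longest within any of the peaks. Peak 2 had blocks of 1, 228 and 161 nt. Peak 3 had blocks of 101, 268 and 21 nt, and peak 4 had blocks of 61, 234 and 575 nt. The 575-nt block at the 3′ end was the widest of the 15, and the median block was 148 nt.

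The smallest Clca4b blocks stood beside the short gaps. The 129-nt last block of peak 1 and the 1-nt first block of peak 2 make, with the 89 nt between them, a stretch of 219 nt. Likewise the 21-nt last block of peak 3, the gap and the 61-nt first block of peak 4 make 171 nt. Whether each stretch is a single exon was not determined, since no exon annotation was used here. Counted with these pairs joined, the gene had 2 covered stretches.

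Among the 22 genes with more than 1 listed peak, Clca4b was the one gene with 4; the 3 next had 3 peaks each. The range of log2 fold changes within a gene ran from 0.03 to 1.68 with a median of 0.505, and the Clca4b range of 0.33 was the 6th smallest although it covered the most peaks. The ratio of highest to lowest enrichment within a gene had a median of 1.73, and the Clca4b ratio of 3.73 was the largest of the 22. No replicate error is available for these ranges.

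**Figure D3:**
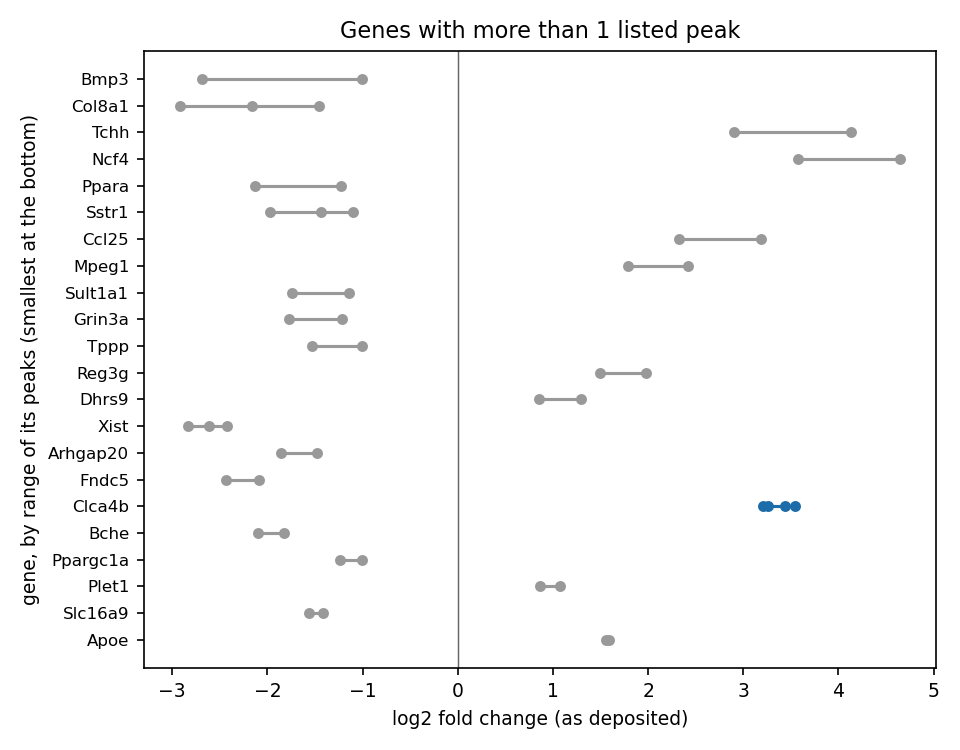
Log2 fold change, as deposited, of each listed peak (points) for the 22 genes with more than 1 listed peak, in order of the range within the gene (lines), smallest at the bottom. Clca4b, in blue, has 4 points between 3.21 and 3.54 to the right of most other genes.

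Within the whole list, 14 peaks on 10 genes had a log2 fold change of at least 3.21, the lowest Clca4b value, and 4 of these 14 were the Clca4b peaks, at ranks 9, 10, 13 and 14 from the most positive. Guca2b ranked 57 from the most positive. Slc12a2 ranked 56 from the most negative of the 75 negative peaks. By enrichment, peaks 2 and 4 of Clca4b shared rank 26 of 195, Guca2b and peak 1 of Clca4b ranked 63 and 61, peak 3 of Clca4b ranked 94 and Slc12a2 ranked 143.

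**Figure D4:**
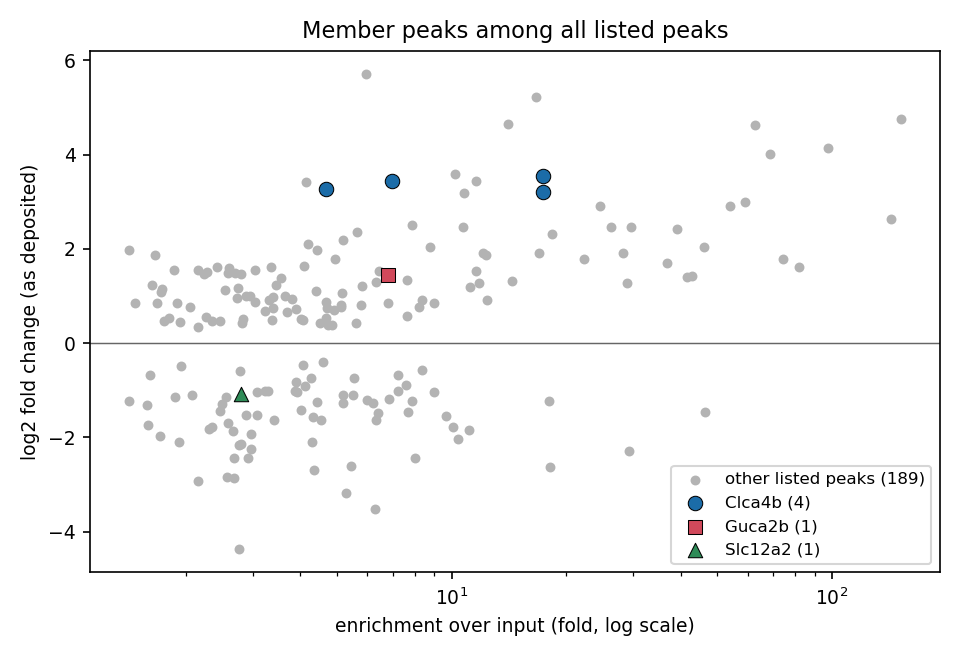
Log2 fold change as deposited against enrichment over input (fold, log scale) for all 195 listed peaks. The 4 Clca4b peaks lie above 3.2 on the vertical axis, the Guca2b peak is at 1.44 and 6.81-fold, and the Slc12a2 peak is at -1.08 and 2.8-fold.

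Other genes of ion and fluid transport were looked up in a list of 76 genes, of which 5 had a listed peak. Of all 21900 RefSeq protein-coding genes, 162 or 0.74% had a listed peak, whether or not they are expressed in this tissue. The 3 members were chosen because they have listed peaks, so the count of 5 cannot be read against that share; of the 73 other genes, 2 had a listed peak, Prkg2 and Chrm1, both negative. The list was written with earlier results of these data known, and with so few listed genes its counts are a description. It is not complete, as it left out other transporter and channel genes with a listed peak, such as Slc13a1 and Kcnh3. Prkg2 encodes the cyclic GMP-dependent protein kinase II, which acts downstream of guanylate cyclase C on CFTR and on sodium uptake. Its peak was 1 block of 241 nt at chromosome 5, 98931836 to 98932076, minus strand, with its midpoint at 98.0% of the gene span. The authors' deposited table gave it a log2 fold change of -1.78 (FDR 5.2e-05) and a 2.35-fold enrichment. Of the 7 genes of guanylin and cyclic GMP signalling, Prkg2 was the listed gene beside the member Guca2b; the peaks had opposite signs, and the difference between them was not tested.

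Chrm1 encodes the M1 muscarinic receptor for acetylcholine, a transmitter that triggers intestinal secretion. Its peak was 1 block of 750 nt at chromosome 19, 8678843 to 8679592, plus strand, with a log2 fold change of -1.63 (FDR 5.2e-05) and a 3.42-fold enrichment in the authors' deposited table. It was the listed gene among 12 for secretagogue receptors and cyclic AMP, and the 18 genes of basolateral transport and its kinases had none beside the member Slc12a2. No gene was listed among 13 for apical anion channels and exchangers (Cftr is one of them), 12 for sodium and proton absorption and 6 aquaporins. With 0.74% of protein-coding genes listed, a count of 0 in lists this short says nothing particular about them. For a gene that is not listed, a peak that failed the authors' test and the lack of any tested peak cannot be told apart.

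The neighbours of Guca2b and Clca4b in their gene clusters had no listed peak. Guca2a, which encodes guanylin, the other ligand of guanylate cyclase C, lies 17135 nt from Guca2b and had 0; with 0.74% of protein-coding genes listed, these zeros say nothing particular about the clusters. The CLCA family forms a cluster of 8 genes on chromosome 3, and Clca4b was the member with listed peaks. The nearest neighbours are the pseudogene Clca4c-ps, 14909 nt away, and Clca4a, 19956 nt away. The sources used here do not say how reads that match more than 1 family member were counted, so the assignment of signal to Clca4b rather than to a similar copy is uncertain.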

How the data were processed

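The authors' deposited table of differential m6A peaks was the only processed file used; it has a row for each peak and no values of single samples. Per the submitters' processing notes, R 3.6, HOMER 4.10.0, HISAT2 2.1.0 and Trim Galore 0.6.5 were used with build mm10; the peak caller and the role of each tool are not given in the sources used here. Column names are spelled, per the file headers, as in the output of the R package exomePeak. The authors deposited the score column as the p-value of enrichment over input, together with its log10 values. The deposited fold enrichment is the ratio, not logged, of immunoprecipitate to input. The deposited genotype difference consists of a log2 fold change and the log10 of its p-value and FDR, which were converted to linear values here.

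Rows named Slc12a2, Guca2b or Clca4b were taken, coordinates were made 1-based, and each peak was placed on the gene span of RefSeq GRCm38.p6, the assembly that mm10 denotes. Distances, block widths and ranks were computed in Python 3.11.15 with pandas 2.3.3. The m6A consensus was searched on the transcribed strand, and promoter motifs on both strands, in the RefSeq promoter table (GRCm38.p6). The motif search was tested on a made-up sequence. No test was run, because the members were chosen from a list of peaks that had already passed the authors' test and no value per sample was used here. The members, the 76-gene transport list and the motifs were chosen with earlier results of these data known. The genes named are the 3 members, every transport-list gene and cell type marker with a listed peak, and genes with no listed peak that are named as absent. C1qa, C1qb, C1qc, Col6a1, Col8a1, Slc13a1, Kcnh3, Xist and Tsix are also named, as examples picked from the listed peaks. The depth of each library is unknown.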

Additional observations from a re-analysis of the deposited data

How the results depend on the processing

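A stricter FDR of 0.01, or a minimum size of the log2 fold change of 1, left all 6 peaks and all 5 transport-list genes in place. A minimum of 2 left 4 peaks, all of Clca4b. Of all listed peaks, 53.3%, 71.3% and 25.1% met these settings in turn. The settings act on the deposited values of peaks already listed, so these outcomes follow from the values given above. No step of the authors' processing was varied. The Clca4b median log2 fold change of 3.35 was 3.41 as a mean weighted by spliced width, 3.35 at an FDR of at most 0.01, and 3.54 when the peak with the smallest FDR stood for the gene. The share of the Clca4b gene span inside its peaks, 75.2%, was 11.8% with exon blocks only, which leaves out skipped stretches by construction, and 76.1% with peaks within 200 nt joined. No paired analysis was possible because values of single samples are not part of the table used, and replicates could not be left out in turn either. Read depth is unknown, so no limit of detection can be stated.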
